A study of Mus musculus with 6 samples.

Results

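Murine embryonic fibroblasts (MEF) that lack the RNA-binding protein TIA1 were compared with wild-type (WT) MEF on 1-colour arrays that carry probes for the whole mouse transcriptome. The comparison took the 2 arrays labelled TIA1 knock out and the 2 labelled wild type out of 6 arrays in all, and every non-control probe, 55681 probes for 22340 named genes. The WT cells carry the strain label W4 and the TIA1 KO cells the label BALB/c. The remaining 2 arrays hold TIAR KO MEF, labelled C57BL/6, and were used to ask whether a value was particular to TIA1 KO MEF and in 1 alternative fit of all 6 arrays. All 3 lines were immortalized, no other treatment is labelled, and 200 ng of RNA was used per array. Each genotype came from 1 strain, so genotype, strain and the history of each immortalized line cannot be told apart. The 2 replicates of a group were described as independent, but no source says that they came from separate embryos, so p-values measure the spread between these samples.

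TIA1 is an RNA-binding protein that attaches to U-rich and AU-rich stretches of RNA. In the nucleus it helps the splicing machinery to recognise weak splice sites. In the cytoplasm it holds back the translation of bound mRNAs and takes part in stress granules, where stalled messages collect. TIAR, made from Tial1, is its closest relative. Fibroblasts are the cells of connective tissue that secrete collagen and elastic fibres, shape tissues through growth factors and Wnt signals, and sense infection through interferon.

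Values are the authors' normalized log2 intensities, and a gene was read from its brightest probe over the 4 arrays. A probe was rated well above background or not by the scanner software, which rated 23569 and 26295 probes so on the WT arrays but 16021 and 19996 on the TIA1 KO arrays. The median spot intensity before normalization was 152 and 140 for WT MEF against 458 and 218 for TIA1 KO MEF, and the negative controls read 112 and 103 against 196 and 119. Over all probes the 2 WT arrays correlated at 0.99 and the 2 TIA1 KO arrays at 0.957. TIA1 KO replicate 1 stood apart: replicate 2 correlated with WT replicates 1 and 2 at 0.955 and 0.957, and replicate 1 at 0.920 and 0.918. Restricted to 13801 probes that every one of the 4 arrays rated well above background, the 2 TIA1 KO arrays correlated at 0.980 and their values with WT MEF at 0.915 to 0.935. On the slide, the TIA1 KO arrays occupied a different row from the WT and TIAR KO arrays, so slide row and genotype cannot be told apart.

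The brightest Tia1 probe (mm9 chromosome 6, 86381136 to 86381195) gave 9.73 and 10.0 on the WT arrays and 7.31 and 8.69 on the TIA1 KO arrays. Both TIA1 KO values lay below both WT values by over 1 on the log2 scale, but 1 of the 2 TIA1 KO spots was still rated well above background. On the log2 scale the change was −1.86 with a standard error of 0.53 (2 arrays in each group, limma adjusted p = 0.149), so the fall of Tia1 did not pass the test. Another probe of Tia1 read 10.57 and 8.71 against 7.52 and 8.38, and the third probe 7.34 and 7.22 against 8.15 and 8.61, so the probes did not all move the same way. The labels do not say which part of Tia1 was deleted, so a probe outside it would not check the knockout. The paper reports TIA1 protein as absent from these cells by western blot, and Tia1 mRNA by semiquantitative and quantitative RT-PCR. Tial1, the gene of TIAR, had a value of 13.29 on a single WT array and of 14.20 and 13.77 in TIA1 KO MEF (limma adjusted p = 0.267). Gapdh, the glycolytic enzyme that served as the reference of the quantitative PCR, read 18.65 and 18.73 in WT and 18.55 and 18.73 in TIA1 KO MEF.

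A probe was called up-regulated or down-regulated at a limma adjusted p under 0.05 over all probes with a fold change above 2. By this rule 871 probes (1.56%) rose and 438 (0.787%) fell in TIA1 KO MEF. Read by gene, 587 of 22340 genes (2.63%) rose and 274 (1.23%) fell. These shares are the background for every count of a gene list by the main values. A count from another fit has another background. After scaling the arrays to a common median, 1876 of 55681 probes rose and 13925 fell. List counts from such fits are therefore not to be set beside the shares above. The share of called probes that rose was 66.5%, but 47.6% when only probes well above background in a group were tested, 48.3% with all 6 arrays in 1 fit and 11.9% after scaling the arrays to a common median, which moved the median of all probes from −0.12 to −0.67. Calls also depended on single arrays: limma made none without WT replicate 1 or without WT replicate 2 (6466 and 6629 probes at an unadjusted p under 0.05), 459 rises and 97 falls were called without TIA1 KO replicate 1 (390 of them among the main calls), and 5867 and 5358 were called without replicate 2. A fit without an array leaves 1 array in that group, which is assumed to vary like the 2 arrays of the other group. Because so few arrays make the test coarse, genes are also counted whose arrays lay apart by over 2-fold, meaning that both arrays of the higher group were well above background and exceeded both arrays of the other group by more than 1 on the log2 scale. Of all genes, 811 (3.63%) lay apart upward and 830 (3.72%) downward, and this count carries no test.

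**Figure D1:**
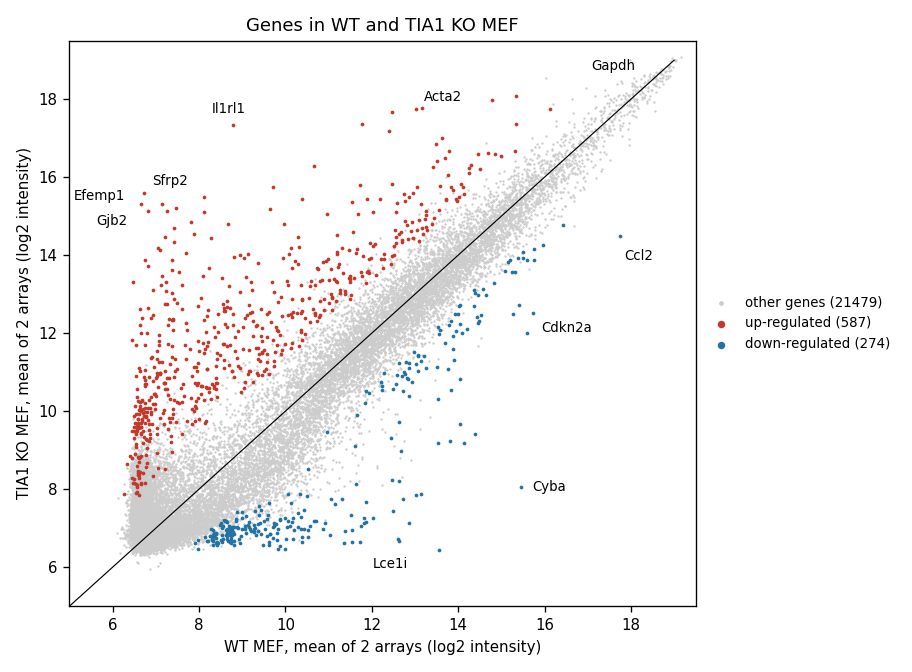
Mean normalized log2 intensity of each gene in WT MEF (x axis, 2 arrays) and in TIA1 KO MEF (y axis, 2 arrays), with 587 up-regulated genes in red, 274 down-regulated genes in blue and the line of equal values in black. In 366 of the 861 called genes, such as Sfrp2 and Lce1i, the lower group was near background on both arrays, and in 448, such as Acta2, Ccl2 and Cdkn2a, on neither.

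Of the 65 gene lists, 3 of the extracellular matrix held the largest shares of rises by the main values. Of 22 elastic fibre genes, 11 rose and 0 fell, of 11 fibrillar collagens 5 rose and 0 fell, and of 19 matricellular proteins, which sit in the matrix and act on cells rather than bear load, 7 rose and 0 fell. Without TIA1 KO replicate 1 these numbered 7, 3 and 5, and after scaling the arrays to a common median 8, 3 and 7. The median log2 fold change was 1.81 for elastic fibre genes, 2.35 for fibrillar collagens and 1.02 for matricellular proteins, beside −0.095 for all genes. The excess of each list's median over that of all genes was positive under all 11 alternatives.

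Elastic fibres are built on microfibrils of fibrillin, onto which fibulins lay elastin before lysyl oxidases cross-link it. Efemp1, the gene of fibulin-3, read 6.61 and 6.70 in WT MEF, near background, and 15.32 and 15.29 in TIA1 KO MEF. It was at least 367-fold higher (limma adjusted p = 0.00746), a lower limit set against the lowest value rated well above background on each WT array. Mfap5, the microfibril protein MAGP-2, read 7.27 and 7.56 in WT and 14.61 and 14.76 in TIA1 KO MEF, higher by 7.27 ± 0.18 on the log2 scale. It was near background on 1 WT array. Both genes belonged to the 15 largest rises. Fbln5, the fibulin-5 that links elastin to cells, rose from 9.35 and 9.92 to 15.33 and 15.05. Fbn2, the fibrillin of embryonic tissue, read 6.88 and 7.16, near background, against 9.28 and 9.85 and was at least 5.84-fold higher (limma adjusted p = 0.0424). The cross-linking enzymes Lox and Loxl1 rose by 4.18 and 2.20 on the log2 scale. Ltbp2, a latent TGF-beta binding protein of microfibrils, read 13.83 and 13.10 in WT and 11.09 and 10.49 in TIA1 KO MEF and did not pass the test (limma adjusted p = 0.0650).

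Col3a1, the type III collagen of soft tissue, read 9.84 and 9.57 in WT and 15.71 and 15.76 in TIA1 KO MEF, higher by 6.03 ± 0.17 on the log2 scale (limma adjusted p = 0.00746). Col1a1, the main chain of type I collagen, was bright in both groups, with 15.42 and 15.26 against 17.38 and 17.36. Col2a1, the collagen of cartilage, was near background in WT MEF, with 7.39 and 7.34, and read 12.46 and 12.23 in TIA1 KO MEF. All of these chains were called up-regulated. Of 32 other collagens, 6 rose, namely 3 chains of the type VI microfibril (Col6a1, Col6a2 and Col6a3), 2 chains of the type IV sheet of basement membranes (Col4a1 and Col4a2) and Col12a1, and 2 fell. Without TIA1 KO replicate 1, 5 rose and none fell. Col6a3 was near background at 7.27 and 7.04 in WT MEF and reached 15.31 and 15.30, at least 284-fold higher. Col4a1 rose from 7.86 and 7.79 to 14.84 and 14.88, and Col4a2 by 6.16 on the log2 scale. The 2 that fell were Col18a1, which holds the endostatin fragment, with 12.25 and 12.71 against 7.67 and 8.79, and Col7a1, the anchoring fibril of skin, with 14 and 13.81 against 11.37 and 11.27.

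Other matrix proteins and the enzymes that make them were called as well. Smoc2, a calcium-binding matricellular protein, read 7.14 and 7.28 in WT and 14.33 and 14.61 in TIA1 KO MEF. Thbs2, a thrombospondin, and Ccn5 rose by 5.45 and 4.92 on the log2 scale. Smoc2, Thbs2 and Ccn5 were each near background on 1 WT array. Fn1, fibronectin, rose from 15.40 and 15.29 to 18.04 and 18.12. Of 15 small leucine-rich proteoglycans 3 rose and 0 fell, led by Bgn (biglycan) at 3.34, and without TIA1 KO replicate 1 none of these 3 was called. Dcn, decorin of the same family, was near background on 1 array of each group and read 7.07 and 7.27 against 8.48 and 9.35 (limma adjusted p = 0.105). Has2, the enzyme that makes hyaluronan, went from 8.15 and 8.05 to 13.42 and 13.51, and Gpc1, a glypican that holds growth factors at the cell surface, rose by 3.35. Of 15 laminin and basement membrane genes Lama2, Nid2 and Nid1 rose while Lamb3, a laminin chain of epithelium, fell from 10.18 and 10.18 to 6.72 and 6.71, near background. Of the 3 rises 1 was called without TIA1 KO replicate 1, and with a common median 2 of the 15 rose and 6 fell. The median of this last list lay above that of all genes, but below it by 0.23 after scaling the arrays to a common median and by 0.48 with the processed signal.

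Among 35 matrix proteases and their inhibitors, 7 rose and 1 fell, or 3 and 1 without TIA1 KO replicate 1. Serpinf1, the secreted factor PEDF, rose from 11.74 and 11.81 to 17.34 and 17.38, and Adamts2, which trims the ends of procollagen, was near background in WT MEF at 7.04 and 7.0 and read 11.17 and 10.63 in TIA1 KO MEF. Mmp2, the gelatinase, was the one that fell, with 11.83 and 11.91 against 7.25 and 8.07, at least 14.6-fold lower. Of 25 integrins, Itgb3 rose by 4.89 and Itgb5 by 2.91 on the log2 scale. These are the beta chains that pair with integrin alpha-V to bind vitronectin.

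**Figure D2:**
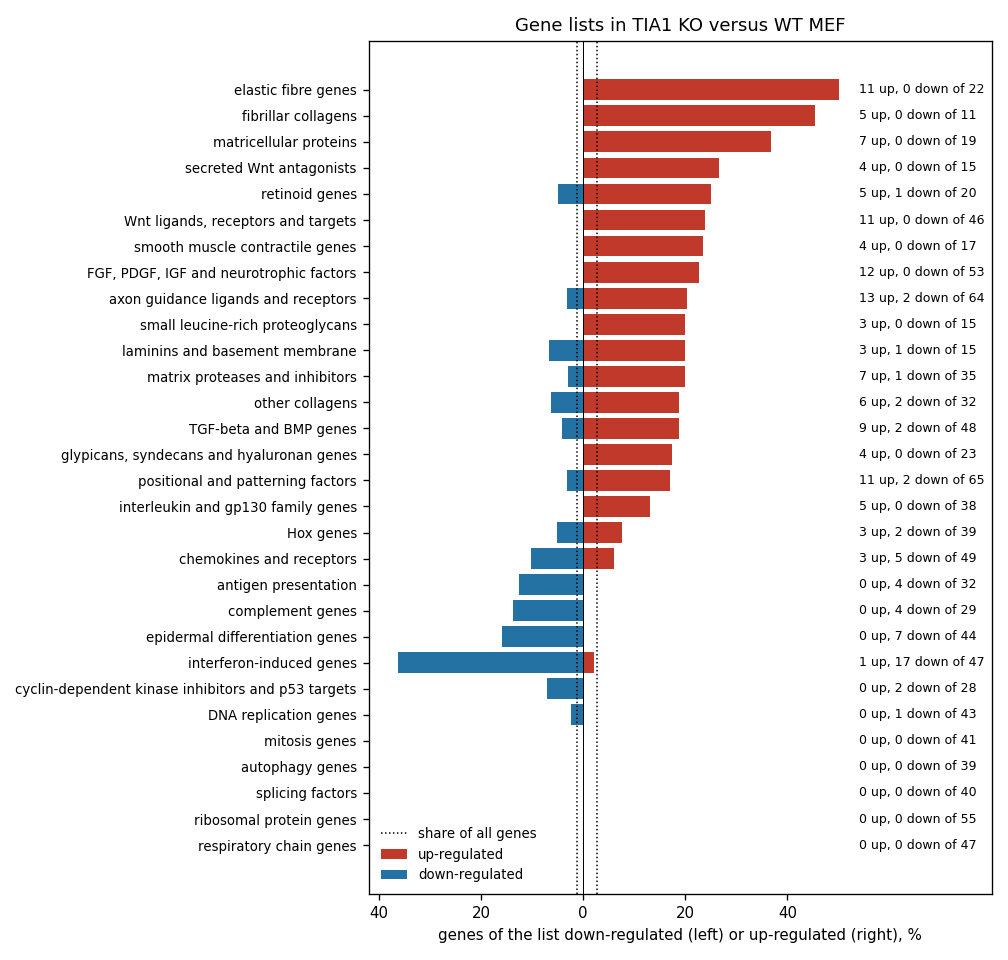
Share of the genes of 30 lists that were up-regulated (red, right of 0) or down-regulated (blue, left of 0) in TIA1 KO versus WT MEF, in percent, with the counts at the right and the shares of all genes, 2.63% and 1.23%, as dotted lines. Matrix, Wnt and growth factor lists lie to the right and interferon, epidermal and complement lists to the left, whereas lists of ribosomal, respiratory chain, splicing and mitosis genes hold no call by the main values.

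Some contractile genes of smooth muscle and myofibroblasts were called. Acta2, smooth muscle actin, read 12.82 and 13.21 in WT and 17.69 and 17.82 in TIA1 KO MEF, higher by 4.74 ± 0.21 on the log2 scale (limma adjusted p = 0.0106). Tagln, the actin-binding transgelin, rose from 13.21 and 13.61 to 16.20 and 16.31. In all, 4 of 17 genes rose and 0 fell, the others being Tpm1 and Myl9, and 6 lay apart by over 2-fold. Only 1 of the 4 was called without TIA1 KO replicate 1, and after scaling the arrays to a common median 2 of the 17 rose and 3 fell. The difference of Acta2 between TIA1 KO and TIAR KO MEF did not pass the test, at −0.66 ± 0.18 (TIA1 KO minus TIAR KO; limma adjusted p = 0.167).

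**Figure D3:**
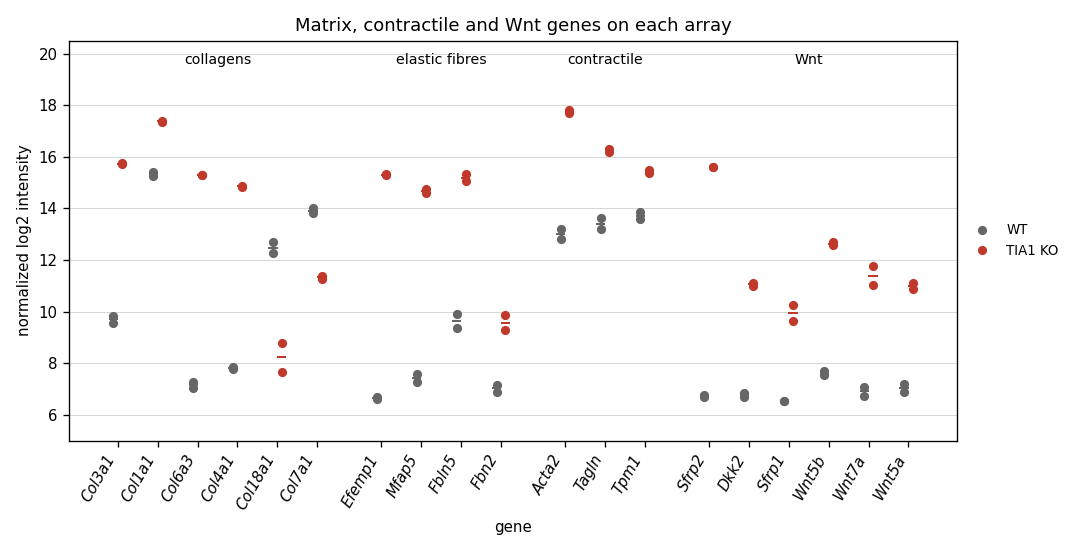
Normalized log2 intensity (y axis) of 19 matrix, contractile and Wnt genes (x axis) on each of the 2 WT arrays (grey) and the 2 TIA1 KO arrays (red), with the mean of each pair as a short line. Both TIA1 KO arrays lie above both WT arrays for 17 of these genes and below them for Col18a1 and Col7a1.

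Wnt signals pass between cells through frizzled receptors and are held in check by secreted antagonists. Members of both kinds were called in TIA1 KO MEF. Of 15 antagonists 4 rose and 0 fell, and of 46 Wnt ligands, receptors and targets 11 rose and 0 fell, with 3 and 8 of them without TIA1 KO replicate 1. Sfrp2, a decoy that captures Wnt proteins, was among the 15 largest rises, with 6.69 and 6.76 in WT MEF, near background, and 15.61 and 15.60 in TIA1 KO MEF. It was at least 440-fold higher (limma adjusted p = 0.00746). Sfrp1 read 6.54 and 6.55 against 9.62 and 10.25, and Dkk2, which blocks the Wnt co-receptor, 6.84 and 6.68 against 11.12 and 10.98. All WT values of these antagonists were near background. The ligands that rose most were Wnt5b, with 7.55 and 7.68 against 12.68 and 12.57, Wnt7a, at least 22.5-fold higher, and Wnt5a, at least 15.1-fold higher. Dkk3 rose too, but had a value on 1 TIA1 KO array only.

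Other secreted factors and receptors of development followed. Of 53 growth factors, binding proteins and receptors of the FGF, PDGF, IGF and neurotrophic families 12 rose and 0 fell (5 without TIA1 KO replicate 1, and 9 rises and 9 falls with a common median). Igfbp4 and Igfbp5, which bind insulin-like growth factors, were near background in WT MEF and at least 81.0-fold and 35.1-fold higher in TIA1 KO MEF. Pdgfc, a ligand for the PDGF receptor Pdgfra, rose from 8.77 and 8.33 to 12.78 and 12.71. Of 48 TGF-beta and BMP genes 9 rose and 2 fell (7 and none without TIA1 KO replicate 1, and 7 and 12 with a common median). Inhbb, the activin chain, read 7.10 and 7.02 against 13.99 and 14.40. Grem1, a BMP antagonist, read 7.31 and 7.43 against 13.26 and 12.79. Id1, a target of BMP signalling, fell from 13.46 and 13.66 to 11.97 and 11.99, and Fst, the follistatin that captures activin, from 13.01 and 12.95 to 11.63 and 11.42.

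Of 64 axon guidance genes 13 rose and 2 fell. Sema5a, a semaphorin, was at least 120-fold higher and Slit3 at least 30.9-fold higher, both from near background in WT MEF, whereas Sema4d fell from 9.63 and 9.79 to 6.73 and 6.76. Without TIA1 KO replicate 1 the counts were 4 and 1, and with a common median 9 and 18. Of 20 retinoid genes 5 rose and 1 fell (3 and none without TIA1 KO replicate 1, and 4 and 7 with a common median). Crabp1, which carries retinoic acid inside the cell, read 7.25 and 7.27 against 12.66 and 12.84, while its sister gene Crabp2 fell from 15.51 and 15.66 to 13.83 and 13.92. The 2 carriers thus moved in opposite directions.

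By the main values, interferon-induced genes held the largest share of falls among the 65 lists. They are switched on by type I and type II interferon and act against viruses and other microbes. Of 47 measured members 17 fell (36.2% of the list, where 1.23% of all genes fell) and 1 rose, and 23 lay apart downward by over 2-fold. The median log2 fold change was −1.53, and its difference from the median of all genes was negative under all 11 alternatives. As above, some of these cannot move a fold change. Without TIA1 KO replicate 1, 2 fell, and 33 fell after scaling the arrays to a common median. On the WT arrays 41 and 43 of the 47 genes were well above background and on the TIA1 KO arrays 19 and 22, next to the smaller number of probes above background on those arrays overall. Their part in the result was not tested.

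Ifi27l2a, an interferon-induced protein of the inner membranes, read 12.50 and 12.74 in WT and 7.65 and 8.79 in TIA1 KO MEF. The change was −4.40 ± 0.44 on the log2 scale (limma adjusted p = 0.0391), with 1 TIA1 KO array near background. Ifi211, of the cluster of interferon-induced DNA sensors, read 10.54 and 10.53 against 6.71 and 6.86, near background, and was at least 8.82-fold lower. Oas1a, which makes the 2′-5′ oligoadenylates that trigger RNA decay, read 12.24 and 13.01 against 9.64 and 9.82. All of these genes were called down-regulated. Isg15, a ubiquitin-like modifier, fell from 14.17 and 14.03 to 12.10 and 11.90 and remained bright, as did Bst2, which tethers budding viruses, with 14.57 and 14.73 against 12.91 and 13.04. Irgm1, an immunity-related GTPase, was the member that rose, from 11.89 and 11.95 to 13.49 and 13.70, while its relatives Irgm2 and Igtp fell to near background and were at least 2.62-fold and 4.21-fold lower. Members of the Ifi, Oas, Gbp and Irgm families are close relatives whose probes may share targets, so the value of a single member is uncertain.

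Many of these genes carry an interferon-stimulated response element near their start. The motif was searched as GAAA, any 2 bases and GAAA, on both strands, in the 250 bases before the start (RefSeq, GRCm38.p6). It was found in 10 of the 13 down-regulated members with a promoter in that table and in 19 of all 34 members with one, but in 602 of 17451 genes of the array (3.45%) and in 2.98% of all 32851 promoters. The list was chosen for genes known to answer to interferon, so this share describes the list and is no test. One match per gene, with 30 bases on each side, cut at the end of the searched stretch, is shown for 6 of the genes that fell. These genes were chosen after their values and motifs were seen, so the likeness of their elements follows from the search and the choice. Capitals mark the matched motif, and the sequences read 5′ to 3′ on the gene's strand. Positions are in GRCm38.p6. Igtp and Irgm2, neighbours on chromosome 11, have nearly the same window.
Isg15 (chr4:156200845-156200914, minus strand): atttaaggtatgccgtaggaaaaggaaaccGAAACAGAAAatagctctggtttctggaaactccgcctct
Bst2 (chr8:71537557-71537626, minus strand): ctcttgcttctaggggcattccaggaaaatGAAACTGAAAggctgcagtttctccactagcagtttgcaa
Gbp2 (chr3:142620574-142620643, plus strand): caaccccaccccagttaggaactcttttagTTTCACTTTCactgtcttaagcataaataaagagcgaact
Ifi211 (chr1:173913047-173913113, minus strand): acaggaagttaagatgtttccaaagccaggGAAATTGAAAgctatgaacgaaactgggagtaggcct
Igtp (chr11:58199492-58199555, plus strand): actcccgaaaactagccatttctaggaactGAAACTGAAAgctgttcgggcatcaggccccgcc
Irgm2 (chr11:58214883-58214952, plus strand): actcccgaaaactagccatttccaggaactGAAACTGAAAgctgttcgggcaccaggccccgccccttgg

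Genes that present antigens to T cells, many of which also answer to interferon, fell in smaller number. Of 32 members 4 fell and 0 rose (1 without TIA1 KO replicate 1, 23 with a common median), and 9 lay apart downward, beside 3.72% of all genes. Psmb8, a subunit of the immunoproteasome that cuts antigens, read 10.72 and 9.87 in WT and 6.86 and 7.21 in TIA1 KO MEF, near background, and was at least 6.61-fold lower. Nlrc5, which switches on MHC class I genes, read 10.16 and 9.95 against 6.96 and 7.41. H2-Ab1, an MHC class II chain, read 9.75 and 9.87 against 6.80 and 6.59. Each of these genes was called down-regulated. Irf7, a factor that amplifies interferon genes, fell from 8.81 on both WT arrays to 6.86 and 7.22, near background, and was the only called member of 16 IRF and STAT factors, of which 10 fell with a common median and none without TIA1 KO replicate 1. H2-Q8, among the 15 largest falls, belongs to a family of near-identical genes that differ between strains, so its value is uncertain.

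Of 49 chemokines and receptors 5 fell and 3 rose, or 1 and 2 without TIA1 KO replicate 1. Ccl5, a chemokine for T cells, fell from 14.75 and 13.54 to 8.74 and 9.62, and Ccl2, which draws monocytes, from 17.74 and 17.77 to 14.44 and 14.52. Ackr3, the scavenging receptor of Cxcl12, rose from 8.25 and 7.98 to 12.36 and 12.31, and Cxcl12 itself from 13.02 and 13.19 to 14.76 and 15.05. Of 29 complement genes 4 fell and 0 rose, 1 of them without TIA1 KO replicate 1. C3, the central protein of the cascade, read 12.66 and 12.71 against 8.71 and 9.27. C1s2 and C1ra, proteases of the first complex, read 10.83 and 10.22 against 6.73 and 7.19, and 11.24 and 12.04 against 7.83 and 8.42. The median of the complement list lay below that of all genes, but above it by 0.075 with a common median and by 1.83 with the processed signal.

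Of 38 interleukin and gp130 family genes 5 rose and 0 fell (3 without TIA1 KO replicate 1, and 5 rises and 12 falls with a common median). Il1rl1, the receptor ST2, read 8.58 and 8.99 in WT and 17.23 and 17.45 in TIA1 KO MEF, higher by 8.55 ± 0.22 on the log2 scale. Its ligand Il33 was near background in WT MEF, at 6.62 and 6.63, and read 10.02 and 10.07 in TIA1 KO MEF. Receptor and ligand thus rose on both TIA1 KO arrays. Of 17 prostaglandin genes 1 rose and 2 fell, and with a common median 0 rose and 6 fell. Ptgs2, the inducible cyclooxygenase, rose from 11.02 and 11.42 to 13.52 and 13.89. The prostaglandin synthases Ptgds and Ptgis fell to near background and were at least 5.94-fold and 6.17-fold lower.

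**Figure D4:**
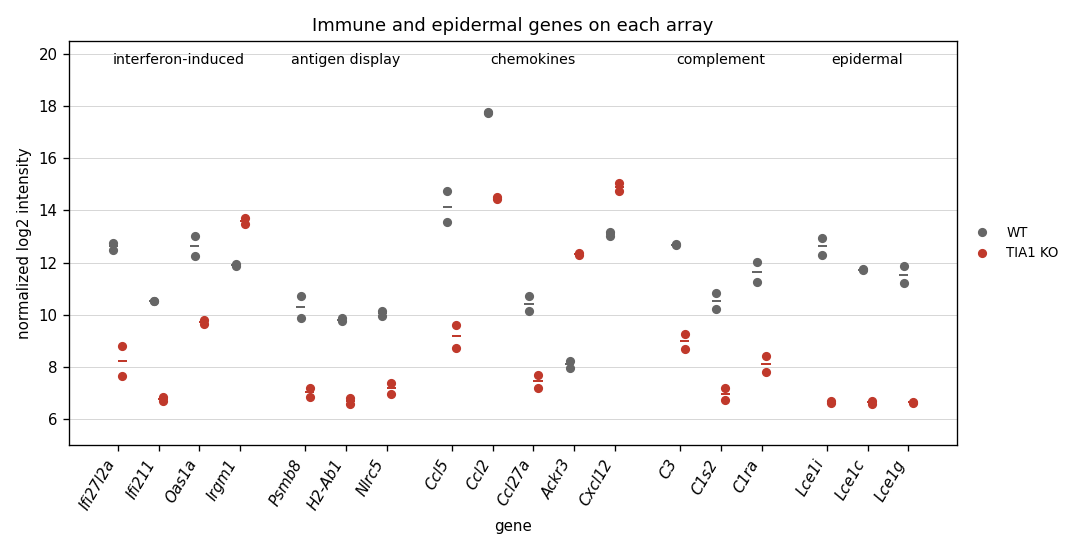
Normalized log2 intensity (y axis) of 18 immune and epidermal genes (x axis) on each WT array (grey) and each TIA1 KO array (red), with the mean of each pair as a short line. The TIA1 KO arrays lie below both WT arrays for 15 genes and above them for Irgm1, Ackr3 and Cxcl12.

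Epidermal differentiation genes, which lie together on chromosome 3 and build the outer skin, fell in 7 of 44 members and rose in 0, with 11 apart downward. Lce1i, of the late cornified envelope family, read 12.94 and 12.31 in WT and 6.64 and 6.72 in TIA1 KO MEF, at least 39.4-fold lower, and Lce1c and Lce1g were at least 21.2-fold and 19.2-fold lower. The Lce1 genes are near-identical copies, so these are not separate measurements. Without TIA1 KO replicate 1, 4 of the 7 were called, and with a common median 19 fell. Lce1i was near background in TIAR KO MEF too, at 6.64 and 6.86, so the knockouts could not be compared.

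Transcription factors that mark position in the body changed in both directions. Of 39 Hox genes, which give cells their place along the trunk and limbs, 3 rose and 2 fell, and of 65 further patterning factors 11 rose and 2 fell (8 and 3 without TIA1 KO replicate 1, and 15 and 14 with a common median). Pitx1, a factor of the hindlimb, was near background in WT MEF at 6.79 and 6.73 and read 13.98 and 13.79 in TIA1 KO MEF, at least 129-fold higher. Tbx4, the T-box factor of the hindlimb, read 6.59 and 6.68 against 11.30 and 10.76. Tbx5, the T-box factor of the forelimb and heart, went the other way, from 10.96 and 10.88 to 6.88 and 7.39, near background. Each of these factors was thus well above background in 1 group only. Hand2, of the heart and limb, fell from 11.84 and 11.90 to 7.71 and 6.62. Hoxd13 and Hoxa11, genes of the distal and middle limb, were at least 58.3-fold and 26.8-fold higher, while Hoxd8 and Hoxd9 were at least 17.7-fold and 11.6-fold lower. Without TIA1 KO replicate 1 3 of these rises and 1 of these falls were called, and with a common median 4 rose and 15 fell.

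The test against TIAR KO MEF used no WT array. Of all genes, 442 (1.98%) were higher and 397 (1.78%) lower in TIA1 KO than in TIAR KO MEF. Pitx1 read 6.82 and 6.81 in TIAR KO MEF and was at least 134-fold higher in TIA1 KO MEF (limma adjusted p = 0.0101). Hoxd13 and Hoxa11 were near background there and at least 63.8-fold and 33.1-fold higher in TIA1 KO MEF, and Hoxd8, at 10.79 and 11.23 in TIAR KO MEF, was lower in TIA1 KO MEF by at least 10.5-fold (limma adjusted p = 0.0195). Tbx5 and Hand2, at 6.68 and 6.74 and at 7.02 and 7.09, were near background in TIAR KO MEF too. Gjb2 and Ctsh, also near background in TIAR KO MEF, were at least 374-fold and 248-fold higher (limma adjusted p of 0.0101 and 0.0108). Sfrp2 and Il1rl1 were higher by 8.09 and 9.31 on the log2 scale (limma adjusted p of 0.0101 for each). Col3a1 read 15.22 and 16.71 in TIAR KO MEF and did not pass the test (difference −0.23 ± 0.55; limma adjusted p = 0.806). Oas1a, near background in TIAR KO MEF at 7.04 and 7.08, was at least 6.36-fold higher in TIA1 KO MEF (limma adjusted p = 0.0165). Ifi211, at 11.17 and 10.95 in TIAR KO MEF, was lower in TIA1 KO MEF by at least 12.7-fold (limma adjusted p = 0.0114). Isg15, at 9.60 and 10.12, was dimmer in TIAR KO MEF than in TIA1 KO MEF by 2.14 (limma adjusted p = 0.0484). Ifi27l2a, Igtp, Irgm2, Gbp2 and Bst2 did not pass this test (limma adjusted p of 0.149, 0.102, 0.0835, 0.0967 and 0.105). Without TIAR KO replicate 1 or 2 limma called no probe in this test, though 6204 and 6294 had an unadjusted p under 0.05.

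**Figure D5:**
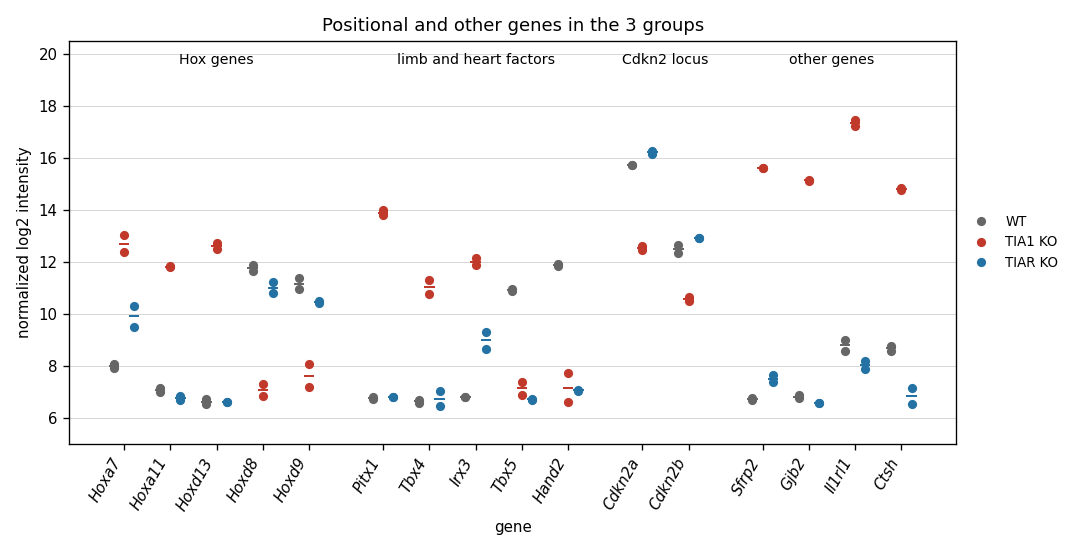
Normalized log2 intensity (y axis) of 16 genes (x axis) on each WT (grey), TIA1 KO (red) and TIAR KO (blue) array, with the mean of each pair as a short line. Hoxd13, Hoxa11, Pitx1 and Tbx4 are well above background in TIA1 KO MEF only, and Cdkn2a is lowest in TIA1 KO MEF.

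Single genes outside these groups were among the largest changes. Gjb2, the gap junction protein connexin 26, read 6.76 and 6.87 in WT MEF, near background, and 15.12 and 15.15 in TIA1 KO MEF, at least 310-fold higher. Lrrc32, which docks latent TGF-beta at the cell surface, read 7.47 and 7.48 against 15.21 on both TIA1 KO arrays. Ctsh, a lysosomal cathepsin, rose from 8.77 and 8.59 to 14.85 and 14.74. Ripk3, a kinase of necroptosis, read 7.16 and 7.02 against 14.21 and 14.06 and was at least 132-fold higher. Each of these genes was called up-regulated. Fam20a, a secreted pseudokinase, Prl2c5, of the prolactin family of near-identical genes, and Ccdc80, a matrix protein, rose by 7.87, 7.37 and 6.99 on the log2 scale. Fam20a and Lrrc32 were each near background on 1 WT array. Cyba, the membrane subunit of the phagocyte NADPH oxidase, was among the 15 largest falls, from 15.62 and 15.29 to 7.5 and 8.59. Its log2 fold change was −7.41 ± 0.43 (limma adjusted p = 0.0163), with 1 TIA1 KO array near background. The catalytic partner of Cyba, Nox4, rose from 9.20 and 9.31 to 10.74 and 10.76. Prim2, a subunit of DNA primase, fell from 13.11 and 13.18 to 7.42 and 8.31 as the only called member of 43 DNA replication genes by the main values, of which 41 fell with a common median and 6 without TIA1 KO replicate 2. Cda, which salvages cytidine, read 12.86 and 13.21 against 7.28 and 8.41, and Rgs2, a brake on G-protein signals, 12.57 and 12.86 against 7.98 and 7.5. In each of these falls the TIA1 KO values were near background on at least 1 array. The remaining genes of the 15 largest falls were 5830417I10Rik, Pianp, Rnf39, Zcchc3 and Reep1, at least 79.6-fold, 39.9-fold, 24.6-fold, 26.6-fold and 17.0-fold lower, and Tinagl1, with 14.40 and 14.37 against 8.83 and 9.98.

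Beside Prim2, calls among the cell cycle lists lay at the Cdkn2 locus. Cdkn2a, the locus of the cell cycle inhibitors p16 and p19ARF, fell from 15.73 on both WT arrays to 12.45 and 12.60, and its neighbour Cdkn2b from 12.32 and 12.66 to 10.64 and 10.51, out of 28 inhibitors and p53 targets. Of these 2 falls 1 was called without TIA1 KO replicate 1, and with a common median 14 of the 28 fell. Cdkn2a was lower than in TIAR KO MEF by 3.67 (limma adjusted p = 0.0122). None of 27 genes of G1 cyclins, their kinases and E2F factors and none of 41 mitosis genes was called, and Ccnb1, the mitotic cyclin B1, read 15.09 and 15.07 against 14.06 and 14.19 (limma adjusted p = 0.0786). Cdk1, its kinase, changed by −0.06. By the main values 0 genes were called among 55 ribosomal protein, 47 respiratory chain, 40 splicing factor, 39 autophagy, 31 unfolded protein response and 17 stress granule genes. After scaling the arrays to a common median 21 of the G1, 38 of the mitosis, 49 of the ribosomal protein and 41 of the respiratory chain genes fell. So did 34 of the splicing factor, 28 of the autophagy, 16 of the unfolded protein response and 15 of the stress granule genes. With 6 arrays in 1 fit, 3 of the G1, 4 of the autophagy, 1 of the splicing factor and 1 of the stress granule genes fell. In that fit 3 unfolded protein response genes rose and 1 fell, and 1 mitosis gene rose. It called 0 ribosomal protein and 0 respiratory chain genes. The lack of calls in these lists thus describes the main fit. Of the autophagy genes, Map1lc3b, Sqstm1 and the lysosomal Lamp1 changed by −0.19, 0.03 and −0.02 on the log2 scale.

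The labelled cell type was checked against its markers. Of 20 fibroblast markers 14 and 16 were rated well above background in WT MEF, compared with 15 and 16 in TIA1 KO MEF. Vim, vimentin, read 17.36 and 17.60 against 17.83 and 17.95, the collagens Col1a1 and Col1a2 were bright in both groups, and Cd248, Pdgfra, Pdgfrb, Fn1 and Col1a1 rose. Of these 5 rises 2 were called without TIA1 KO replicate 1, and with a common median 5 of the 20 markers rose and 5 fell. Pdgfra was near background in WT MEF, at 6.62 and 6.77, and read 10.16 and 10.42 in TIA1 KO MEF. Thy1, a defining marker of fibroblasts, read 7.03 and 7.45 against 6.87 and 7.18 and was rated above background on 1 WT array only, while in TIAR KO MEF it read 14.83 and 14.79. Lum was near background on all of these arrays. Markers of other cells were called in these numbers: 0 of 16 epithelial, 0 of 6 mesothelial, 0 of 11 endothelial, 1 of 13 macrophage and leukocyte (Aif1, lower), 1 of 10 muscle (Acta1, higher), 1 of 11 neural (Gap43, higher) and 2 of 12 adipogenic genes (Pparg and Plin2, higher), or 10.0%, 9.09% and 16.7% of the last 3 lists where 2.63% of all genes rose. Aif1 made up 7.69% of the macrophage and leukocyte list, where 1.23% of all genes fell. The defining Epcam, Cdh5, Ptprc, Adgre1 and Myod1 were near background in WT MEF and on at least 1 TIA1 KO array. Other markers in these lists were well above background on all 4 arrays, among them the endothelial Kdr, with 11.43 and 11.55 against 11.57 and 11.65, the epithelial Krt19, with 12.32 and 12.43 against 13.36 and 13.38, the myeloid Itgam, with 12.14 and 11.70 against 13.83 and 13.53, and the neural Nes, with 14.81 and 14.50 against 15.27 and 15.36. None of these 4 passed the test, and their part in the other results was not tested. Of the 3 Itgam probes, 2 moved the other way from the brightest one given here. On the WT arrays 7 of the 13 leukocyte markers were above background, and on the TIA1 KO arrays 4 and 7. Msln, a mesothelial marker, was bright in both groups, with 16.50 and 15.91 against 17.99 and 17.76. On bulk arrays, fewer cells of a kind and less RNA per cell cannot be told apart.

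Other genes of the study's quantitative PCR gave smaller or uneven values. Mest, an imprinted gene, read 8.5 and 8.70 against 7.85 and 8.78, and Hmga2 14.56 and 14.43 against 15.31 and 15.06 (limma adjusted p = 0.623 and 0.134). These are the brightest probes, and 2 of the 3 Mest probes and 1 of the 2 Hmga2 probes moved the other way. Ereg, epiregulin, had a value on 1 TIA1 KO array only, 11.83, beside 11.57 and 10.93 in WT MEF. Xist, the RNA of the inactive X chromosome, read 6.45 and 6.58 on the WT arrays against 10.59 and 7.65 on the others, so the TIA1 KO arrays differed from each other by more than the lower of them differed from WT (limma adjusted p = 0.226).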

How the data were processed

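RNA of 6 MEF samples, 2 per group, was measured on 1-colour Agilent arrays of 1 slide. The authors deposited, for each array, linear spot intensities from Feature Extraction 10.7.3.1 (mean signal, local background and processed signal, none of it normalized between arrays), and a table of log2 values that they state to be normalized. Per their methods, the background was corrected by normexp with an offset of 50, and values were taken to log2, adjusted by loess and quantile normalized. The submitters' processing notes name limma. Correlations of each log2 column with values recomputed from its own array were 0.997 to 0.999, so scale and direction were settled.

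Control spots and outlier spots were dropped, spots of a probe were averaged (432 probes had more than 1), and no dim probe was left out. A probe was well above background on an array if 50% or more of its spots had that rating. Of 29272 probes with a RefSeq accession 27325 matched a table of GRCm38.p6, used for names; probe positions are mm9. A gene was read from the probe with the highest mean over the 4 arrays. Each comparison was fitted with limma 3.58.1 in R 4.3.3 on its own 4 arrays without covariates, with Benjamini-Hochberg adjustment over all probes and the thresholds of the methods. A prior of 1.85 degrees of freedom moderated the variances, and the median standard error was 0.208. The fits were tested on simulated data.

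Where the lower group was near background on both arrays, the fold is a lower limit: each such array was set to its lowest value rated well above background (6.22 and 6.96 in WT, 7.93 and 5.79 in TIA1 KO MEF) or to the probe's own value if higher. The 65 gene lists (1769 genes) and the tests were chosen with earlier results of these data known. Genes to name were drawn from Tia1, Tial1 and Gapdh, the 15 largest rises and falls, up to 3 genes each way per list, the cell type markers, and the genes of the quantitative PCR and blots. The further genes in the text and the count of genes apart by over 2-fold were chosen after seeing the data. The alternatives were values recomputed from the intensities, a common array median, the processed signal at the 75th percentile, only probes well above background, outlier spots kept, 6 arrays in 1 fit, a replicate block, treat and leaving out each array.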

Additional observations from a re-analysis of the deposited data

How the results depend on the processing

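The number of arrays, 2 per group, limits every value. From the main 871 rises and 438 falls, recomputing the values gave 1213 and 756, a common array median 1876 and 13925, testing only probes well above background 1081 and 1190, 6 arrays in 1 fit 1738 and 1862, and treat 305 and 63. The processed signal moved the median of all probes to 1.98, and with it limma called 0 and 0 probes, though 27765 had an unadjusted p under 0.05. Leaving out 1 array gave 0 to 5867 rises and 0 to 5358 falls. The deviations of same-numbered WT and TIA1 KO arrays correlated at 0.075, so the numbers do not pair them, and with the replicate block limma called 0 probes, though 11378 had an unadjusted p under 0.05. Against TIAR KO MEF, 668 probes were higher and 610 lower. Recomputed values gave 908 and 958, leaving out 1 array 0 to 5783 and 0 to 5611, and the replicate block 0 and 0, with 9655 at an unadjusted p under 0.05. The cause of these shifts was not tested. Without WT replicate 1 or 2, 6466 and 6629 probes had an unadjusted p under 0.05.

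Of the 1309 called probes, 1283 kept their sign under all alternatives. Of the 159 named genes that were called, 156 were called the same way from recomputed values, 159 among probes well above background, 142 with a common median and 91 of 158 without TIA1 KO replicate 1. The genes to name were mostly drawn from called genes well above background in the higher group, so the count of 159 was largely set by that choice. With the processed signal and with the replicate block, 0 of the 159 were called. The log2 fold change of P4ha2, which helps collagen to fold, turned from 1.54 to −0.0056 with a common median. In the higher group, 89.6% of called probes were rated well above background on each array, and 23 were near background on all 4.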
